A study of Mus musculus with 12 samples.

Results

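The EGF family ligands and receptors were examined in total colon RNA of mice with and without dextran sulfate sodium (DSS) colitis. The members were the rows of the deposited gene table whose gene name is Areg, Ereg, Hbegf, Tgfa, Btc, Epgn, Egf, Egfr, Erbb2 or Erbb3, that is 7 ligands and 3 receptors, 10 of 54532 genes. There were 12 colon libraries in 4 groups of 3. All mice were on the C57BL/6N background, were 6 to 8 weeks old when DSS began by the study's methods, carried both floxed copies of Tmem173 (the gene of STING, a sensor protein of innate immunity) and had 5 tamoxifen injections. Tmem173fl/fl mice, labelled WT, have no Cre recombinase. Tmem173iΔmye mice, labelled CRE, also hold an inducible Cre, switched on by tamoxifen, in Lyz2, a gene used by macrophages, neutrophils and related myeloid cells and not by the epithelium. The colitic groups had DSS, a polymer toxic to the gut lining, in the drinking water for 7 days, and the untreated groups drank water. The replicates of the colitic Tmem173iΔmye group carry the numbers 1, 2 and 5.

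The EGF ligands are made as membrane-bound precursors, are cut free by proteases such as ADAM17, and bind receptor tyrosine kinases of the ERBB family on the same or on neighbouring cells. EGFR binds all of these ligands, ERBB2 binds none and acts as a partner, and ERBB3 binds neuregulins and has little kinase activity of its own. In the colon the pathway is known for driving epithelial survival, movement and regrowth after injury, through the RAS-MAPK and PI3K cascades.

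Each ligand binds its receptor through 1 EGF-like domain whose 6 cysteines are joined in pairs. The coding sequence of this domain, from its first to its last cysteine, is shown for the ligands other than Hbegf because it is the feature by which the family is defined, and because Ereg, whose RNA changed most, can be set against its relatives there. It was read from the GENCODE transcripts on GRCm38, 5′ to 3′ on the coding strand, and capitals mark the cysteine codons. Ereg is on chromosome 5, where the stretch runs over exons 3 and 4 (chr5:91088496-91089111, with the intron between them left out here).
Areg: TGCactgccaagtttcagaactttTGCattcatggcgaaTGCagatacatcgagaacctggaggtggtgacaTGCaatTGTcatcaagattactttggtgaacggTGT
Ereg: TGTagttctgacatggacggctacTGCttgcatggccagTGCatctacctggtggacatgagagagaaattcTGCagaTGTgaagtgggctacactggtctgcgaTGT
Tgfa: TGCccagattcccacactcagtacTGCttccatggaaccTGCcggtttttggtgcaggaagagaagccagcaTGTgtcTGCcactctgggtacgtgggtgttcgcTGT
Btc: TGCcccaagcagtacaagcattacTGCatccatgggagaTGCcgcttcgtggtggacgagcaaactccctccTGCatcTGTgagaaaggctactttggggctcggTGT
Epgn: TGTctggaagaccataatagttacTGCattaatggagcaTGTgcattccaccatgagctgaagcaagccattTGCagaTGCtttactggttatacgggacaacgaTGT
Egf: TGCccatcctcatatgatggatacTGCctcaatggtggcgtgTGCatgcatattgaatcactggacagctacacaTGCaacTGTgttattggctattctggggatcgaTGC

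The cysteines are 7, 4, 10, 1 and 8 residues apart in Areg, Ereg, Hbegf, Tgfa, Btc and Epgn, and 7, 5, 10, 1 and 8 residues apart in Egf, whose stretch is therefore 1 codon longer (37 against 36 codons). Ereg shares 33.3% of the encoded residues with Areg, its neighbour on the chromosome, and 44.4% with Hbegf and with Btc. The closest pair was Hbegf and Btc, with 55.6%. In all of these ligands but Egf the stretch spans exons 3 and 4, and in Egf it spans exons 20 and 21 of 24.

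Expression across libraries is given as CPM, counts scaled by TMM so that libraries can be compared, and levels of different genes are compared as FPKM, which also divides by gene length. Library totals ran from 13823237 to 18718915 counts. Tmem173, the targeted gene, was at 42.4, 44.0 and 37.7 CPM in colitic Tmem173fl/fl mice and at 47.8, 23.8 and 31.1 CPM in colitic Tmem173iΔmye mice, so the groups overlapped and a loss was not detectable in whole-colon RNA (log2 fold change -0.28, SE 0.26, edgeR adjusted p = 0.5998). The libraries differed in ways that the groups do not explain. Xist exceeded the Y-linked genes, the female pattern, in replicate 3 of both untreated groups and in replicate 5 of the colitic Tmem173iΔmye group, and the sum of 6 pancreas markers ranged from 0 to 8211 CPM. Replicate 5 of the colitic Tmem173iΔmye group stood farthest from its group. The chi-square of its counts per gene was 129.8 against replicate 1 and 88.1 against replicate 2, compared with 72.9 between those 2 libraries and 31.9 to 60.9 between libraries of the other groups. Ereg, Areg, Hbegf, Tgfa, Egfr and Nrg1 are also given without it. Markers of the labelled tissue were high in every library, with a sum of 8 epithelial markers of at least 4378 CPM. A gene was called changed where edgeR gave an adjusted p under 0.05 and the log2 fold change was 1 or more in size.

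In the untreated colon of Tmem173fl/fl mice the receptors Erbb3 and Erbb2 were the most abundant members per length, with 50.8 ± 12.5 and 33.2 ± 7.87 FPKM (SD, n = 3). Areg, which encodes amphiregulin, led the ligands with 31.8 ± 13.4 FPKM. Hbegf, for heparin-binding EGF, had 11.7 ± 3.05 FPKM, Tgfa, for transforming growth factor alpha, had 7.91 ± 1.60 FPKM, and Egfr had 7.27 ± 1.01 FPKM. Btc (betacellulin) had 2.26 ± 0.494 FPKM and Ereg (epiregulin) 1.60 ± 0.240 FPKM. Egf stood at 0.514 ± 0.114 FPKM and Epgn (epigen) at 0.0453 ± 0.0784 FPKM, the lowest level of the 10. The libraries of Erbb3 and Erbb2, of Erbb2 and Areg, and of Tgfa and Egfr overlapped, while the other neighbours in this order did not. The order of the 10 was the same in untreated Tmem173iΔmye mice.

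DSS moved Ereg from near the bottom of this order to the top in Tmem173fl/fl mice. In colitic Tmem173fl/fl mice Ereg had 164.1 ± 86.9 FPKM, above Erbb3 with 52.1 ± 14.8 FPKM and Areg with 20.99 ± 5.34 FPKM. In colitic Tmem173iΔmye mice Ereg had 23.8 ± 3.45 FPKM and stood below Erbb3 (57.3 ± 23.0), Areg (45.5 ± 12.2) and Erbb2 (34.8 ± 8.86 FPKM). In the colitic Tmem173fl/fl libraries Ereg overlapped with its neighbour Erbb3, from 64.8 to 226.4 against 37.5 to 67.0 FPKM, and in the colitic Tmem173iΔmye libraries Ereg, from 21.5 to 27.8 FPKM, overlapped with Erbb2 above it and not with Hbegf below it.

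**Figure D1:**
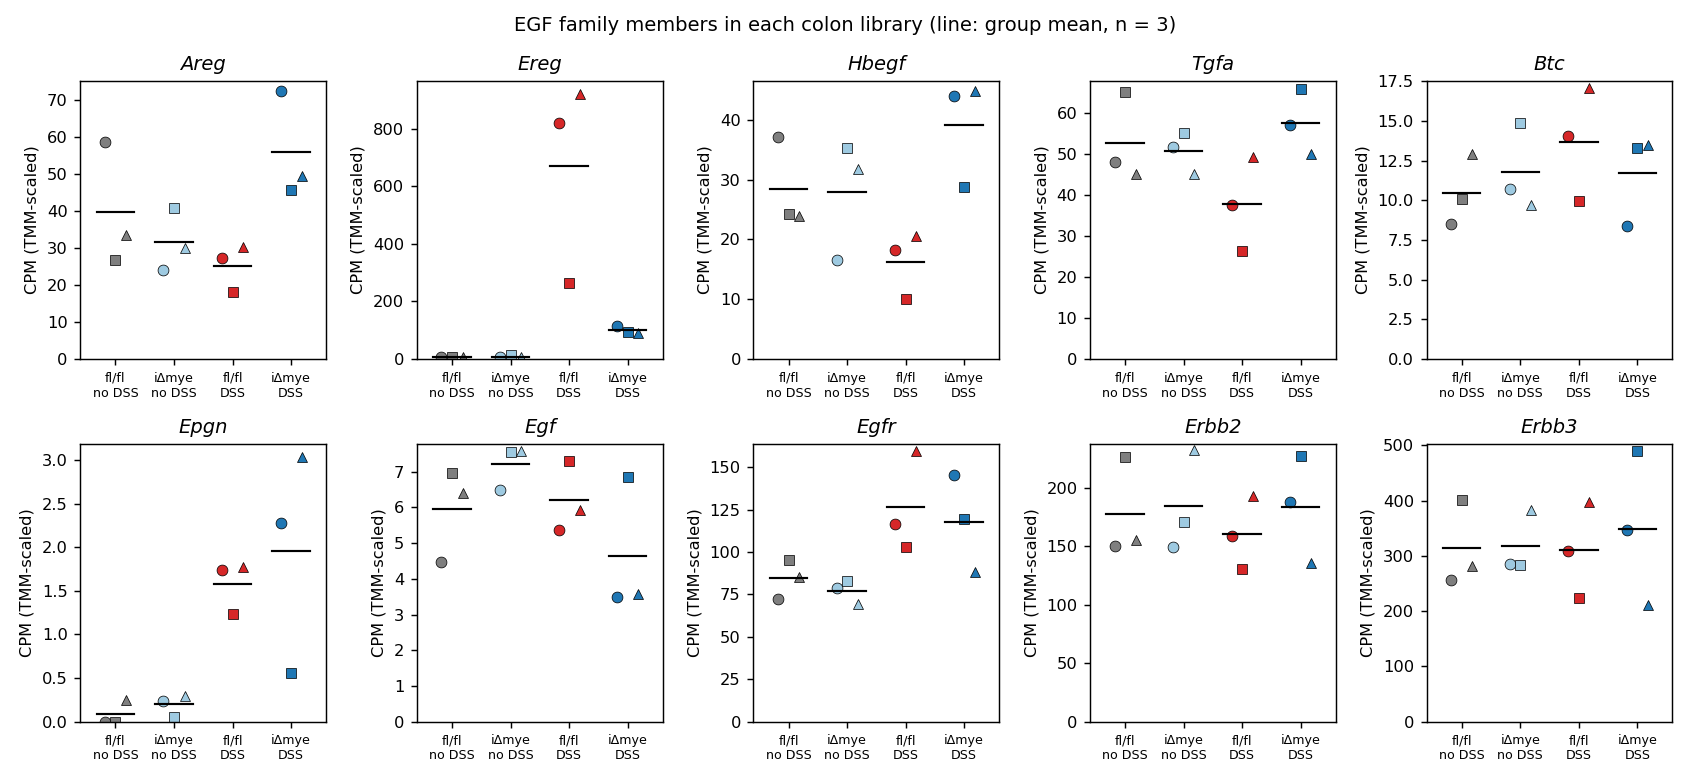
CPM of the 10 members in each of the 12 libraries, 1 panel per gene with its own linear axis from 0; marks are libraries (circle, square and triangle in the order of the replicate numbers of a group) and lines are group means. Ereg lies between 5.35 and 12.3 CPM in all untreated libraries, between 90.9 and 115.0 in the colitic Tmem173iΔmye libraries and between 265.6 and 920.3 in the colitic Tmem173fl/fl libraries, while Erbb2 and Erbb3 overlap in all groups.

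The first comparison asked what colitis changed in mice without Cre. In Tmem173fl/fl mice DSS raised Ereg and Epgn and no other member past both limits. These 2 calls of 10 members compare with 5424 of 24041 genes tested, or 22.6%, so the share of members called was near that of all genes. The median log2 fold change was 0.09 over the members and 0.03 over all genes. The groups did not overlap for 4 of 10 members, against 49.3% of all genes.

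Ereg, a ligand of EGFR and ERBB4 that is made by stromal, myeloid and epithelial cells, was at 7.73, 5.69 and 6.89 CPM without DSS and at 821.6, 265.6 and 920.3 CPM with it (replicates 1, 2 and 3). The lowest colitic library, replicate 2, was still far above the highest untreated one. The log2 fold change was 6.69 ± 0.48 (SE, edgeR adjusted p = 6.653e-06), and the ratio of the mean CPM was 98.9. As the samples are whole tissue, fewer cells of a type and less RNA per cell cannot be told apart, for this and for every other result. No label says that the libraries of a group came from separate mice, so p-values measure the spread between these libraries.

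Epgn, a low-affinity ligand of EGFR, gave 0, 0 and 4 counts in the untreated Tmem173fl/fl libraries and 32, 26 and 26 counts in the colitic ones. The ratio of the summed counts at equal scaling was 17.0, with a 95% interval of 6.40 to 63.9 that covers counting error only. The fitted log2 fold change was 4.08 ± 0.81 (SE, edgeR adjusted p = 0.003214). Even in the colitic Tmem173fl/fl group Epgn stayed at 0.883 ± 0.172 FPKM.

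The other ligands were not called. Areg, which is released by epithelial cells and by several immune cells during tissue repair, was at 58.7, 26.9 and 33.6 CPM without DSS and at 27.2, 18.1 and 30.3 CPM with it, groups that overlap. Its log2 fold change was -0.59 ± 0.29 (SE, edgeR adjusted p = 0.1434). Hbegf was at 37.1, 24.3 and 23.9 CPM without DSS and at 18.3, 10.04 and 20.6 CPM with it. All 3 colitic libraries lay below the untreated ones, but the log2 fold change of -0.74 (SE 0.28) did not pass (edgeR adjusted p = 0.0623). Tgfa ranged from 45.0 to 65.0 CPM without and from 26.3 to 49.3 CPM with DSS, with a log2 fold change of -0.41. Btc ranged from 8.48 to 12.9 CPM without and from 9.99 to 17.1 CPM with DSS, with a log2 fold change of 0.45. Egf, the founding member of the family, ranged from 4.47 to 6.97 and from 5.36 to 7.29 CPM, with a log2 fold change of 0.13.

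Among the receptors, Egfr was at 72.3, 95.5 and 85.5 CPM without DSS and at 116.6, 103.1 and 159.3 CPM with it. The groups did not overlap, and the log2 fold change of 0.65 (SE 0.18) passed the adjusted p of edgeR (0.01906) but not the fold limit. Erbb2 was at 150.2, 226.0 and 155.8 CPM without and at 159.1, 130.2 and 192.6 CPM with DSS, a log2 fold change of -0.07 ± 0.20 (SE). Erbb3 was at 256.5, 401.8 and 282.3 CPM without and at 308.4, 224.1 and 396.9 CPM with DSS, a log2 fold change of 0.05 ± 0.23 (SE). In the same libraries the sum of the 8 epithelial markers went from 11880 to 15000 CPM without DSS to 4378 to 7492 CPM with it, 5 of 8 markers being called lower, beside 22.6% of all genes. Its part in the receptor levels was not tested.

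In Tmem173iΔmye mice, which carry the inducible myeloid Cre, DSS raised Ereg alone among the 10 members. That is 1 of 10, against 501 of 24038 genes tested, or 2.08%. The median log2 fold change was 0.34 over the members and 0.03 over all genes, and the groups did not overlap for 4 of 10 members, against 21.5% of all genes. Ereg was at 7.46, 12.3 and 5.35 CPM without DSS and at 115.0, 93.0 and 90.9 CPM with it. The colitic libraries stood close together and well above the untreated ones, and the log2 fold change was 3.57 ± 0.31 (SE, edgeR adjusted p = 0.0007637), a ratio of mean CPM of 11.9. Without replicate 5 of the colitic group Ereg was still the only member called (log2 fold change 3.66, edgeR adjusted p = 6.9e-05), while all genes called went from 501 to 1470.

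Epgn gave 4, 1 and 5 counts in the untreated Tmem173iΔmye libraries and 32, 9 and 50 counts in the colitic ones. The ratio of the summed counts was 9.73 (95% interval 5.06 to 20.98, counting error only), and the log2 fold change of 3.23 ± 0.77 (SE) missed the limit (edgeR adjusted p = 0.06245). It was called without replicate 2 of the colitic group (edgeR adjusted p = 0.03211), the library with 9 counts.

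Areg was at 24.0, 40.9 and 30.0 CPM in untreated and at 72.4, 45.8 and 49.4 CPM in colitic Tmem173iΔmye mice. All colitic libraries lay above the untreated ones, with a log2 fold change of 0.82 and an SE of 0.26 that did not pass (edgeR adjusted p = 0.1528). Hbegf was at 16.6, 35.2 and 31.8 CPM without and at 43.9, 28.8 and 44.7 CPM with DSS, groups that overlap, with a log2 fold change of 0.49. Egfr was at 78.9, 82.8 and 69.2 CPM without and at 145.2, 119.3 and 88.3 CPM with DSS, without overlap, and its log2 fold change of 0.61 had an SE of 0.22 (edgeR adjusted p = 0.2056). Without replicate 5 of the colitic group the log2 fold change of Egfr was 0.81. It then passed the adjusted p of edgeR (0.0277) but not the fold limit, as in Tmem173fl/fl mice. Tgfa, Btc, Erbb2 and Erbb3 had log2 fold changes from -0.01 to 0.18, and Egf had one of -0.64 ± 0.35 (SE), none past the limits.

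Without DSS the genotypes did not separate any member. The test called 0 of 10 members and 0 of 23925 genes (0%), while 720 genes and 0 members had an unadjusted p under 0.05 in edgeR. The groups overlapped for all 10 members, and did not overlap for 7.35% of all genes. Areg had a mean of 39.7 ± 16.8 CPM without and 31.6 ± 8.55 CPM with the Cre (SD, n = 3 each), and Ereg had 6.77 ± 1.03 and 8.38 ± 3.58 CPM. The 10 log2 differences between genotypes had an absolute size of at most 0.32, apart from Epgn, which rests on 4 and 10 counts.

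Under DSS the comparison of genotypes asked which members differed with the myeloid Cre. Ereg was lower with the Cre, and it was the only member called, 1 of 10 against 680 of 24017 genes or 2.83%. The median log2 difference was 0.17 over the members and 0.03 over all genes. Groups did not overlap for 4 of 10 members, Ereg, Areg, Hbegf and Tgfa, against 26.8% of all genes. The comparison shares its libraries with the DSS comparisons above.

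Between the colitic genotypes, Ereg had a mean of 669.2 ± 353.0 CPM without and 99.6 ± 13.3 CPM with the Cre (SD, n = 3 each). Even replicate 2 of colitic Tmem173fl/fl mice, the lowest of the 3 with 265.6 CPM, exceeded the highest colitic Tmem173iΔmye library with 115.0 CPM. Ereg was thus lower by 2.75 on the log2 scale (log2 fold change -2.75, SE 0.43, edgeR adjusted p = 0.0206), a ratio of mean CPM of 0.149. The call was lost when replicate 1 (log2 fold change -2.57, edgeR adjusted p = 0.07822) or replicate 3 (-2.45, edgeR adjusted p = 0.05513) of colitic Tmem173fl/fl mice, or replicate 2 of colitic Tmem173iΔmye mice (-2.69, edgeR adjusted p = 0.09046), was omitted. Without replicate 5 of that group it was kept (-2.69, edgeR adjusted p = 0.04619). With limma at a pseudocount of 0.1 the adjusted p was 0.09945.

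Areg and Hbegf went the other way and were not called. Areg was at 27.2, 18.1 and 30.3 CPM in colitic Tmem173fl/fl and at 72.4, 45.8 and 49.4 CPM in colitic Tmem173iΔmye mice, without overlap. Its log2 fold change was 1.15 ± 0.26 (SE, edgeR adjusted p = 0.05581). Hbegf, at 18.3, 10.04 and 20.6 CPM against 43.9, 28.8 and 44.7 CPM, had a log2 fold change of 1.26 ± 0.31 (SE, edgeR adjusted p = 0.06593). DESeq2 called both genes, with adjusted p of 0.002713 for Areg and 0.003198 for Hbegf. Tgfa, at 37.6, 26.3 and 49.3 CPM against 57.0, 65.8 and 50.1 CPM, was separated by less than 1 CPM between the nearest libraries, and its log2 fold change was 0.60 (edgeR adjusted p = 0.2068). Without replicate 5 of colitic Tmem173iΔmye mice Areg, Hbegf and Tgfa differed by 1.23, 1.16 and 0.69 and were not called (edgeR adjusted p = 0.0716, 0.124 and 0.1992). The epithelial markers separated the colitic genotypes in the same direction, with a sum of 5951, 4378 and 7492 CPM in the Tmem173fl/fl and of 9512, 11310 and 11180 CPM in the Tmem173iΔmye libraries, and 1 of the 8 was called higher, beside 2.83% of all genes. Their part in the levels of Areg, Hbegf and Tgfa was not tested.

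The remaining members did not separate the colitic genotypes. Epgn had 84 counts in all in the Tmem173fl/fl and 91 in the Tmem173iΔmye libraries, a ratio of 1.26 with a 95% interval of 0.928 to 1.72 for counting error alone. Egfr differed by -0.11 ± 0.24 (SE) on the log2 scale, Erbb2 by 0.18 ± 0.24 (SE) and Erbb3 by 0.16 ± 0.33 (SE). Btc differed by -0.23 and Egf by -0.43, with SEs of 0.29 and 0.34. The spread within the colitic Tmem173iΔmye group was wide for Erbb3, from 211.0 CPM in replicate 5 to 488.8 CPM in replicate 2.

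The interaction, fitted over all 12 libraries, tested whether the response to DSS itself differed between genotypes. Ereg was the only member called, 1 of 10 against 614 of 24102 genes or 2.55%. The log2 response of Ereg was 3.06 smaller in Tmem173iΔmye mice (interaction -3.06, SE 0.55, edgeR adjusted p = 0.01228), and it stayed called without any single library, with interactions from -3.50 to -2.67. With limma at a pseudocount of 0.1 it was not called (adjusted p = 0.06127). The interaction of Areg was 1.48 ± 0.43 (SE, edgeR adjusted p = 0.08436) and that of Hbegf 1.30 ± 0.45 (SE, edgeR adjusted p = 0.1478). For Tgfa it was 0.67 ± 0.31 (SE, edgeR adjusted p = 0.2697). For Egfr, Erbb2 and Erbb3 it was 0.03, 0.14 and 0.15, with SEs of 0.29, 0.34 and 0.41.

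**Figure D2:**
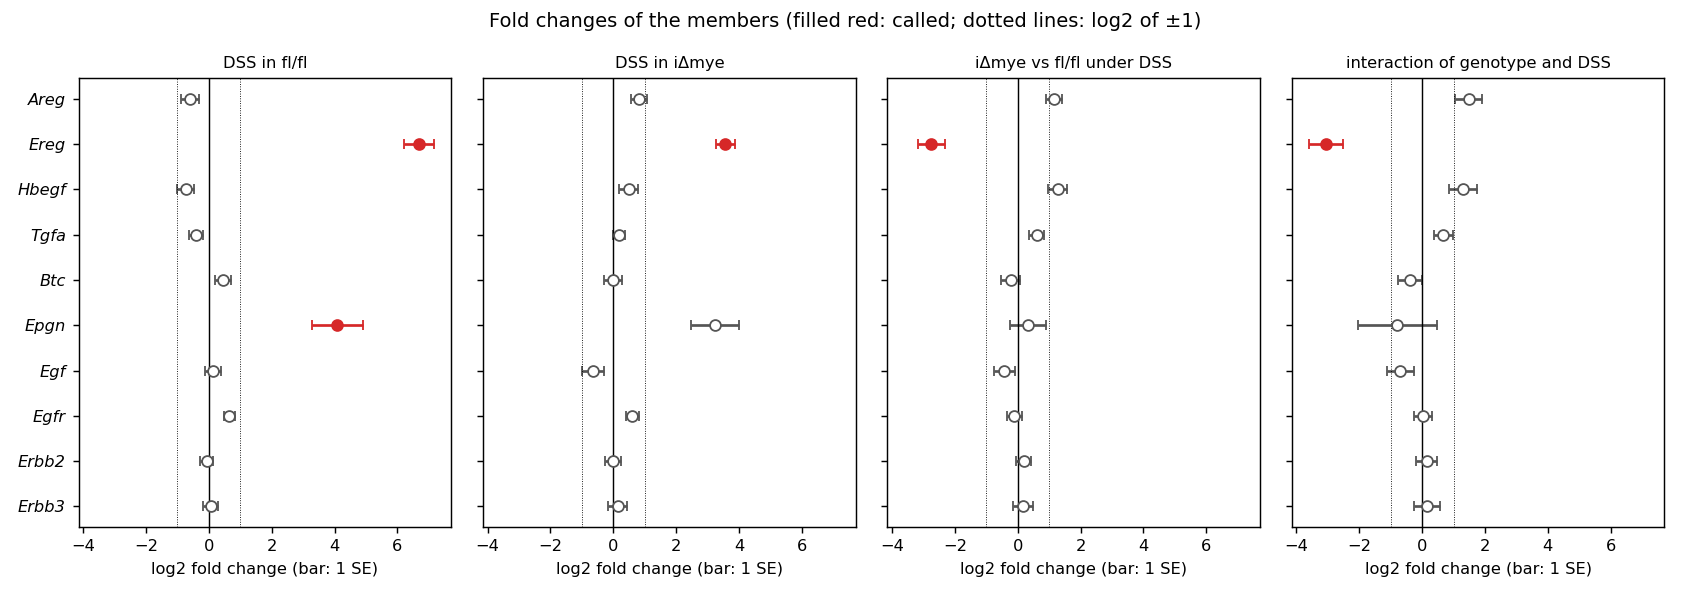
Log2 fold changes of the 10 members in 4 comparisons (x axis, with 1 SE as bars); filled red points are called and dotted lines mark a log2 of 1 in either direction. Ereg is called in all 4 panels, at 6.69, 3.57, -2.75 and -3.06, and Epgn in the first, at 4.08.

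The mixture of ligands changed with these levels. The 7 ligands summed to 55.9 ± 15.2 FPKM in untreated Tmem173fl/fl mice and to 49.9 ± 11.96 FPKM in untreated Tmem173iΔmye mice. With DSS the sum was 202.4 ± 97.2 FPKM in Tmem173fl/fl and 98.3 ± 17.3 FPKM in Tmem173iΔmye mice, from 91.7 to 273.6 and from 85.2 to 117.9 FPKM, so the colitic genotypes overlapped in the total (SD, n = 3 in each group). They did not overlap in the shares of Ereg, Areg, Hbegf and Tgfa, and overlapped in those of Btc, Epgn and Egf. Ereg took 70.6% to 83.1% of the ligand FPKM in the colitic Tmem173fl/fl libraries and 23.4% to 26.1% in the colitic Tmem173iΔmye libraries, against 2.48% to 4.67% in the untreated libraries of both genotypes. Areg took 9.26% to 16.4% in colitic Tmem173fl/fl and 43.2% to 50.4% in colitic Tmem173iΔmye mice, and 47.5% to 64.0% in the untreated libraries. Hbegf took 3.69% ± 0.825 and 16.6% ± 3.07 in the colitic groups. These shares are bound to sum to 100%, so a rise of 1 ligand lowers the share of the others.

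**Figure D3:**
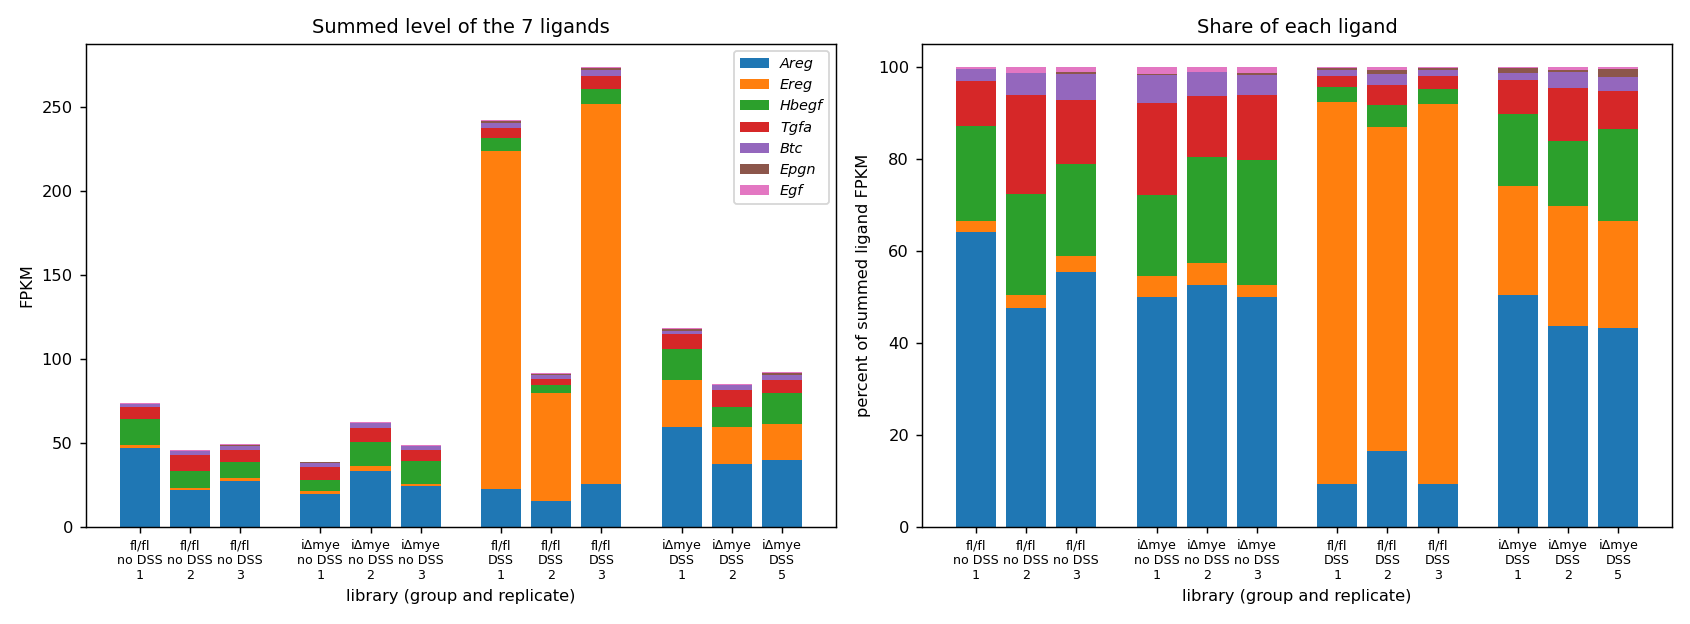
Deposited FPKM of the 7 ligands stacked for each library (left, FPKM) and the share of each ligand in that sum (right, percent), with libraries named by group and replicate. Ereg fills 70.6% to 83.1% of the bars of colitic Tmem173fl/fl mice, while Areg is the largest part of the other groups' bars.

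Epgn, Ereg, Areg and Btc lie together on chromosome 5 of GRCm38, and they did not respond together. Epgn (chr5:91027464-91035215), Ereg (chr5:91074622-91093646) and Areg (chr5:91139599-91148432) are on the forward strand with gaps of 39.4 and 46.0 kb between them, and Btc (chr5:91357261-91402994) is on the reverse strand, 208829 bases further on. From Epgn to Btc, the log2 changes with DSS in Tmem173fl/fl mice were 4.08, 6.69, -0.59 and 0.45. In Tmem173iΔmye mice they were 3.23, 3.57, 0.82 and -0.01. Gm19610, an antisense gene on the reverse strand, whose start overlaps that of Ereg, was called higher with DSS in Tmem173fl/fl mice (log2 fold change 1.68, edgeR adjusted p = 0.008855) but had at most 54 counts in a library, against 5611 or more for Ereg in the colitic Tmem173fl/fl libraries. The library kit does not mark strand, so reads of the overlap cannot be assigned to either gene with certainty.

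The promoters of the Ereg neighbours Epgn and Areg are shown because these genes flank Ereg, Epgn rose with it in Tmem173fl/fl mice and Areg did not. Each window runs from 250 bases before to 50 bases after the start of the gene (RefSeq, GRCm38.p6, forward strand), and capitals mark the motifs found.
Epgn (chr5:91027267-91027566): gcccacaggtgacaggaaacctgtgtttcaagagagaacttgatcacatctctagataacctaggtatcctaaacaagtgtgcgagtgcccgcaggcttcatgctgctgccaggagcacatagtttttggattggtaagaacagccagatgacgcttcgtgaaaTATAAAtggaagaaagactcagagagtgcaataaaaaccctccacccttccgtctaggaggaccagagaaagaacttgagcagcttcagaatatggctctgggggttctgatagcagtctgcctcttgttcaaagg
Areg (chr5:91139349-91139648): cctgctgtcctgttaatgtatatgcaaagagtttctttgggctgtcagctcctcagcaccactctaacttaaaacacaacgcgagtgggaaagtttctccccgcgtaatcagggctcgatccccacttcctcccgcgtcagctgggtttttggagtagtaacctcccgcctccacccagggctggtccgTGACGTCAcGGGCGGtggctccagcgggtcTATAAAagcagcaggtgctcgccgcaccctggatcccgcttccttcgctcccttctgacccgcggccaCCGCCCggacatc

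Both strands of the promoter windows were searched for 7 motifs. In Areg the cyclic AMP response element TGACGTCA, whose reverse complement reads the same, begins 61 bases before the start, a TATA box (TATAAA) 31 bases before it, and a GC box (GGGCGG) 52 bases before and another, on the other strand, 38 bases after it. TGACGTCA occurs in 1.79%, TATAAA in 13.6% and GGGCGG in 35.7% of 32851 promoter windows of this length. In Epgn only TATAAA was found, 86 bases before the start. The letters of AP-1 (TGACTCA, in 5.20% of all windows), NF-kB (1.63%), C/EBP (TTGCNNAA, 10.8%) and STAT (TTCNNNGAA, 8.30%) were not in either window. A promoter window was at hand for 7 of the 10 members, and windows for Ereg, Hbegf and Erbb3 were not analysed here.

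The neuregulins are the other ligands of the ERBB receptors and bind ERBB3 and ERBB4. In Tmem173fl/fl mice DSS raised 3 of the 4 neuregulins tested, beside 22.6% of all genes called. Nrg1, which supports the regrowth of intestinal epithelium, was at 7.04, 7.92 and 8.27 CPM without and at 354.7, 222.3 and 353.7 CPM with DSS, a log2 fold change of 5.39 ± 0.23 (SE, edgeR adjusted p = 6.069e-07). Nrg3 rose by 2.80 (edgeR adjusted p = 0.00103) and Nrg2 by 1.56 (edgeR adjusted p = 0.02856) on the log2 scale, and Nrg4 was not called, with a log2 fold change of 0.70. The call of Nrg2 was lost in 9 of 15 alternatives (adjusted p up to 0.1293), and omitting either replicate 1 or 2 of either group was enough to lose it. In Tmem173iΔmye mice Nrg1 was at 10.3, 7.01 and 5.41 CPM without and at 69.1, 45.6 and 6.19 CPM with DSS. Replicate 5 of the colitic group stayed within the untreated range, and the log2 fold change of 2.41 had an SE of 0.66 (edgeR adjusted p = 0.1025). The colitic genotypes did not overlap for Nrg1, with a log2 difference of -2.95 and an SE of 0.70 (edgeR adjusted p = 0.06183), and its interaction of -2.92 had an edgeR adjusted p of 0.06795. Without replicate 5 Nrg1 was called in all 3, with a rise by DSS of 2.95 (edgeR adjusted p = 0.0001932), a genotype difference of -2.44 (edgeR adjusted p = 0.01425) and an interaction of -2.42 (edgeR adjusted p = 0.005666). Erbb4, the further receptor of neuregulins and of Ereg, was below the filter on low values.

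The wider pathway was read from 73 genes in 7 lists, of which 71 were tested. In Tmem173fl/fl mice DSS raised 15 of them and lowered 2 of 71, beside 22.6% of all genes called in either direction. The 15 include Spry3, which passed the filter on low values only through the colitic Tmem173fl/fl libraries. In Tmem173iΔmye mice 1 rose and 0 fell, beside 2.08% of all genes, and without DSS the genotypes differed in 0 of 71. Between colitic genotypes 1 was higher and 5 were lower in Tmem173iΔmye mice, beside 2.83% of all genes. For the interaction 1 was higher and 2 were lower, beside 2.55% of all genes. These counts moved with single libraries. With DSS in Tmem173iΔmye mice 7 pathway genes were called without replicate 5 of the colitic group and 0 without its replicate 1 or without any single untreated library. Between colitic genotypes 0 were called without replicate 1 or 3 of the Tmem173fl/fl or replicate 2 of the Tmem173iΔmye group, 1 without replicate 2 of the former and 10 without replicate 1 of the latter. All genes called moved in the same fits. With DSS in Tmem173iΔmye mice they went from 501 to 1470 without replicate 5 and to between 52 and 240 where 0 pathway genes were called. Between colitic genotypes they went from 680 to 27, 124 and 46 in the fits with 0 pathway genes, to 204 in the one with 1 and to 1598 in the one with 10.

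Of the genes that release ligands, Rhbdf1, an adaptor of ADAM17, rose with DSS by 1.47 and Timp3, an inhibitor of ADAM17, by 1.62 in Tmem173fl/fl mice. Rhbdl2, a membrane protease that can cut EGF family precursors, fell by 1.67 (edgeR adjusted p = 5.362e-05), from 79.2, 74.2 and 76.1 to 24.7, 17.4 and 26.8 CPM. In Tmem173iΔmye mice Rhbdl2 was at 69.5, 78.3 and 73.4 CPM without and at 45.3, 54.6 and 100.3 CPM with DSS, groups that overlap. Under DSS, Rhbdl2 was higher with the Cre by 1.53 (SE 0.32, edgeR adjusted p = 0.04256), a call lost in 6 of 16 alternatives, and its interaction was 1.59 (SE 0.35, edgeR adjusted p = 0.03183), a call lost in 10 of 21 alternatives, 8 of them single libraries left out. Adam17 was not called in any comparison.

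None of the 11 receptor inhibitors and turnover genes, the 15 genes of the RAS-MAPK core and the 9 of the PI3K and AKT core was called in any of the 5 comparisons, and their absolute log2 changes stayed at or below 1.08. Of all genes, 22.6% were called with DSS in Tmem173fl/fl and 2.08% in Tmem173iΔmye mice. Between genotypes the shares were 0% without and 2.83% with DSS, and 2.55% for the interaction. Of 11 feedback genes that ERK signalling is known to induce, 4 rose and 1 fell with DSS in Tmem173fl/fl mice, beside 22.6% of all genes. In Tmem173iΔmye mice edgeR called 0 of them, beside 2.08% of all genes, while DESeq2, and edgeR by unadjusted p and fold, called 1. That was Spred3, at 1.28 ± 0.32 (log2 fold change with SE, edgeR adjusted p = 0.07415), which was called in 5 of 16 alternatives. Spry1, Spry3, Spry4 and Spred3, which encode inhibitors of RAS-MAPK signalling, were the 4 that rose in Tmem173fl/fl mice. Dusp6, an ERK phosphatase, fell there by 1.16. Spry3 passed the filter on low values only through the colitic Tmem173fl/fl libraries, with 77 counts there in all against 11 in the untreated ones. Its inclusion was thus tied to its level there. Its call cannot support the counts that include it, 4 of 11 here and 15 of 71 above. Spry1 went from 11.8, 10.4 and 15.8 to 35.5, 42.1 and 48.6 CPM in Tmem173fl/fl mice and so rose by a log2 of 1.79 (edgeR adjusted p = 0.0001034). In Tmem173iΔmye mice Spry1 was at 12.9, 16.1 and 15.2 CPM without and at 17.5, 17.5 and 17.1 CPM with DSS. Its interaction was -1.49 ± 0.27 (SE, edgeR adjusted p = 0.01323). Spry1, Spry4 and Spred3 were lower in colitic Tmem173iΔmye mice by 1.29, 1.21 and 1.27 on the log2 scale (log2 fold changes -1.29, -1.21 and -1.27, edgeR adjusted p = 0.01802, 0.04487 and 0.0345). These 3 calls were lost in 6, 8 and 9 of 16 alternatives, with adjusted p up to 0.07195, 0.202 and 0.1501.

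Of 15 genes listed for the early response to ERK activation, 6 rose with DSS in Tmem173fl/fl mice, beside 22.6% of all genes, and 1 in Tmem173iΔmye mice, beside 2.08%. In Tmem173fl/fl mice these were Egr1, Egr2, Egr3, Fosl1, Junb and Ier3, with log2 fold changes from 1.02 for Egr3 to 3.31 for Ier3. The calls of Egr3, Egr2 and Egr1 were lost in 7, 3 and 2 of 16 alternatives. Egr1 was at 507.0, 84.8 and 115.8 CPM in the colitic Tmem173fl/fl libraries, and its log2 fold change of 2.56 became 1.32 without replicate 1, with the call kept. Egr2 lost its call without that library, and Egr3 without it or without replicate 2 or 3 of the untreated group. Ier3, an early stress and growth factor response gene, was the only pathway gene called with DSS in Tmem173iΔmye mice, with a log2 rise of 1.59 (edgeR adjusted p = 0.01976), a call lost in 6 of 16 alternatives (adjusted p up to 0.1422). It was at 135.3, 71.0 and 83.6 CPM in colitic Tmem173fl/fl and at 35.8, 28.3 and 27.6 CPM in colitic Tmem173iΔmye mice, and its interaction was -1.64 ± 0.37 (SE, edgeR adjusted p = 0.03281), a call lost in 10 of 21 alternatives, again 8 of them single libraries left out. Fosl1, an AP-1 subunit, was also lower in colitic Tmem173iΔmye mice, with a log2 difference of -1.64 (edgeR adjusted p = 0.03695), a call lost in 9 of 16 alternatives (adjusted p up to 0.1638). The lower Ier3 between colitic genotypes lost its call in 5 of 16. In Tmem173iΔmye mice DESeq2 called 5 pathway genes with DSS, Ier3, Egr1, Spred3, Etv4 and Etv5, in place of 1. The last pair, ETS transcription factor genes named here after their values were seen, had log2 fold changes of -1.85 and -1.45 in edgeR and were not called there (edgeR adjusted p = 0.1112 and 0.05029). Several of these genes also answer to other signals of inflammation, and which signal moved them was not tested.

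**Figure D4:**
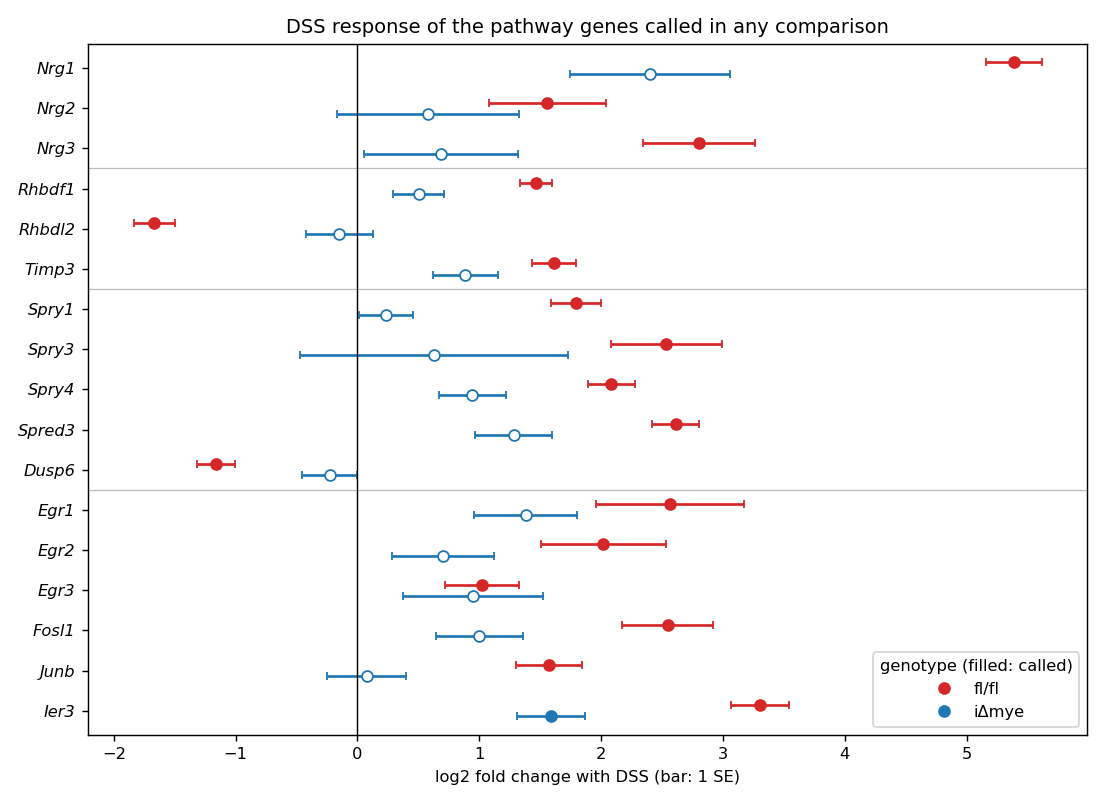
Log2 fold change with DSS in Tmem173fl/fl (red) and Tmem173iΔmye mice (blue) for the pathway genes called in any comparison, with 1 SE as bars and filled points where called; lines separate the lists. Nrg1 is the highest at 5.39 in Tmem173fl/fl mice, and only Ier3 is filled for Tmem173iΔmye mice.

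Cell type marker sums also differed between groups in which Ereg differed. The sum of 8 fibroblast markers was 1175 to 1492 CPM in the untreated libraries of both genotypes, 8036 to 10230 CPM in colitic Tmem173fl/fl and 2334 to 3425 CPM in colitic Tmem173iΔmye mice, and 5 of the 8 were called lower between colitic genotypes, beside 2.83% of all genes called in either direction. The sum of 8 neutrophil markers was 423.5 to 705.6 CPM in colitic Tmem173fl/fl and 199.8 to 316.1 CPM in colitic Tmem173iΔmye mice, again with 5 of 8 called lower. For 8 monocyte and macrophage markers the sums were 661.5 to 895.7 and 235.1 to 566.9 CPM, with 2 of 8 called lower. In colitic Tmem173fl/fl mice the monocyte and macrophage sum was highest in replicate 2, where Ereg was lowest. The fibroblast and neutrophil sums were lowest in that library. In colitic Tmem173iΔmye mice all of these sums were highest in replicate 1, as Ereg was. No marker of these lists was at the floor of 3 counts in every library. The sum of 6 pancreas markers was 7160, 3535 and 434.5 CPM in the colitic Tmem173fl/fl libraries and 8211, 66.9 and 0.364 CPM in the colitic Tmem173iΔmye libraries. Ereg was highest in replicate 3 of colitic Tmem173fl/fl mice, which had the lowest pancreas sum of its group. Among colitic Tmem173iΔmye mice it was highest in replicate 1, which had the highest pancreas sum of its group. The part of any of these cell types in the Ereg levels was not tested.

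**Figure D5:**
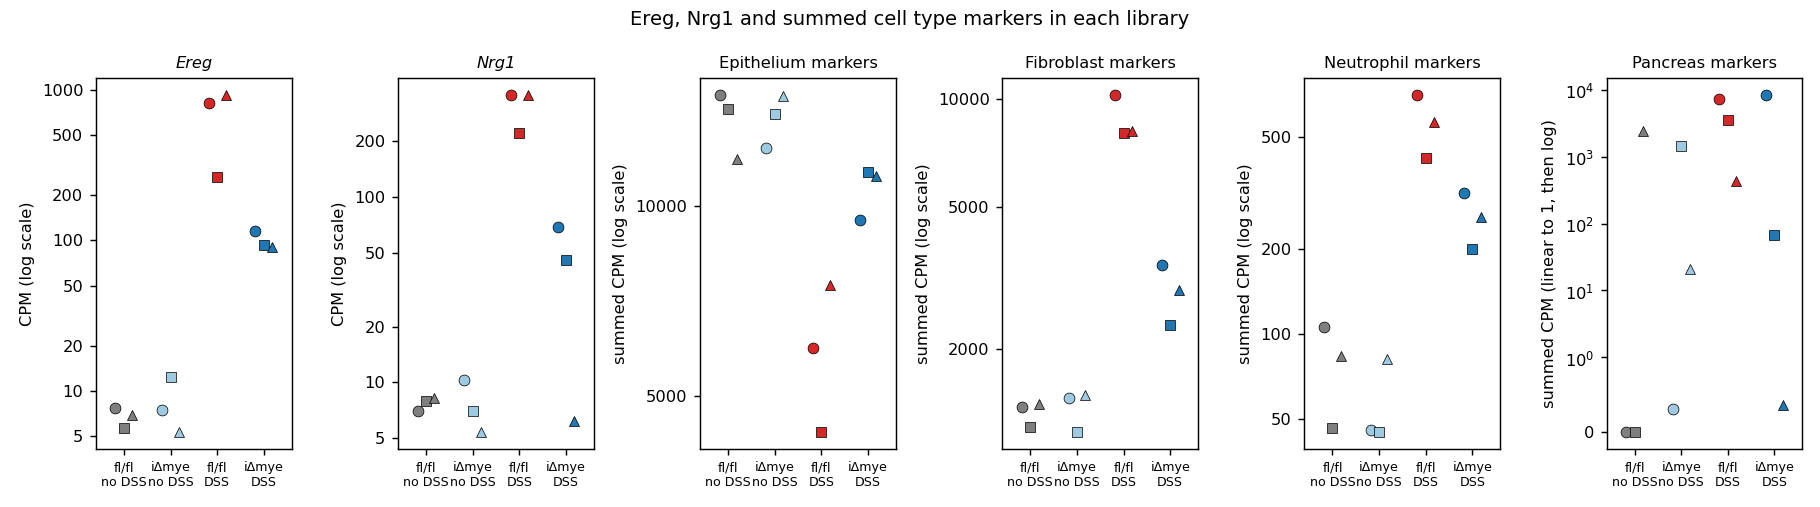
Ereg and Nrg1 (CPM) and the summed CPM of epithelial, fibroblast, neutrophil and pancreas markers in each library, on log axes except the pancreas axis, which is linear up to 1. Fibroblast sums are 8036 to 10230 CPM in colitic Tmem173fl/fl and 2334 to 3425 CPM in colitic Tmem173iΔmye libraries, and the pancreas sum differs among libraries of 1 group.

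The genes whose pattern was most like each member were named by Pearson correlation of log2(CPM + 0.5) over the 12 libraries, among 14551 genes with a mean FPKM of at least 1, with the other members left out and given apart. These points share the 4 groups, so the values describe likeness and carry no test. Ereg was most like Il6 (0.992) and Il11 (0.987), which encode cytokines, and Adamts1 (0.987), which encodes a matrix protease. With ranks in place of values, Tenm3, Cers2 and Ehd3 came first instead. Areg was most like Gm8540 (0.902), Prr13 (0.878) and Stk25 (0.869), and Hbegf was most like Prr13 (0.920), Bcar3 (0.911) and Cyp2d34 (0.909). Outside the family Erbb2 and Erbb3 shared their first neighbours, Fam83f (0.829 and 0.917) and Guca2b (0.814 and 0.906). Egfr was most like Tnfrsf23 (0.942), Il5ra (0.925) and Itgav (0.924), Tgfa like Tmem139 (0.935), Myo1d (0.928) and Cdcp1 (0.924), and Btc like Ccny (0.868), Tmem241 (0.839) and Dlg1 (0.834). Between members, Erbb2 and Erbb3 had a correlation of 0.937, above that of either with any of the other genes, and Areg and Hbegf had one of 0.894, for Areg second only to Gm8540.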

How the data were processed

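PolyA RNA of the colon was sequenced by the authors in 12 libraries. The submitters' processing notes name CASAVA 1.8, fastp, HISAT2 2.0.5, featureCounts 1.5.0-p3, DESeq2 1.20.0 and the builds GRCm38 and mm10, and the use of strand in counting is not given in the sources used here. The authors deposited whole-number counts per gene, and FPKM, that is counts per gene length and library total. Their columns of DESeq2 log2 fold changes, p-values, adjusted p-values and group means were not used. Sample titles gave the groups and the replicate numbers.

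From the counts, the 24102 genes that reached an FPKM of 0.1 in 3 or more libraries were tested with edgeR 4.0.16 quasi-likelihood tests (glmQLFit, glmQLFTest) and TMM scaling in R 4.3.3, with Benjamini-Hochberg adjustment over all genes of a fit. Pairwise fits left out genes with no count in the compared libraries and held 23925 to 24041 genes. Only the groups compared entered a pairwise fit, and the interaction used all libraries. Called means an adjusted p under 0.05 with a log2 fold change of 1 or more in size. Standard errors (SE) are the log2 change over the square root of its F statistic. CPM are TMM-scaled counts. Intervals for Epgn are 95% exact intervals of a ratio of summed counts and cover counting error only. Genes were named by rule: all members, pathway list genes called in at least 1 comparison, the neuregulins with Erbb4, the 3 genes outside the family most like each member with a mean FPKM of at least 1, and Tmem173. Adam17, Etv4, Etv5, Gm19610 and the rank-based neighbours of Ereg were named outside it. The members, gene lists and marker lists were chosen with earlier results of these data known.

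In simulated counts with 200 genes of 24102 changed, the test of colitic genotypes recovered 4% of 2-fold and 75% of 4-fold changes and called 16 unchanged genes, and the interaction recovered 3% and 61% and called 3. With 3 libraries against 3, an exact permutation test of a single gene cannot go below p = 0.1 and was not used for calls. Coding stretches were read with the GENCODE annotation of GRCm38, and promoters with the RefSeq table. Alternatives were DESeq2 1.42.0, limma 3.58.1 on log2(FPKM + 0.1) and log2(FPKM + 1), other scalings, filters and thresholds, a single fit, a replicate block, a sex pattern covariate and each library left out. No 2 libraries of a group were alike within counting noise.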

Additional observations from a re-analysis of the deposited data

Results flagged for a closer look

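The DSS response of Ereg differed between genotypes by the interaction term itself, -3.06 on the log2 scale, with DSS responses of 6.69 in Tmem173fl/fl and 3.57 in Tmem173iΔmye mice. Among the pathway genes the same test singled out Rhbdl2, with an interaction of 1.59 and DSS responses of -1.67 and -0.15. It also singled out Spry1 with -1.49 (DSS responses of 1.79 and 0.23) and Ier3 with -1.64 (3.31 and 1.59). These were 3 of the 71 pathway genes tested, beside 2.55% of all genes called. The interaction calls of Rhbdl2 and Ier3 were each lost in 10 of 21 alternatives, and that of Spry1 in 0 of 21.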

How the results depend on the processing

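Over the alternatives for the member fold changes, 817 of 840 values kept their side of the limits and 0 reversed a call, and 65 small values changed sign without a call. For DSS in Tmem173fl/fl mice the members called numbered 1 with a filter at an FPKM of 1 and with limma at a pseudocount of 1, in place of 2, Epgn being the one lost, 3 by adjusted p alone, Egfr being added, and 2 without any single library. For DSS in Tmem173iΔmye mice they numbered 2 in place of 1 with no filter, DESeq2, a single fit of all 12 libraries, the replicate block, the sex pattern covariate and an unadjusted p, Epgn being added, and 1 to 2 without single libraries. Between colitic genotypes they numbered 3 in place of 1 with no filter, DESeq2, the single fit, the replicate block and an unadjusted p, Areg and Hbegf being added, 0 with limma at either pseudocount, and 0 to 1 without single libraries. For the interaction they numbered 2 with no filter and with DESeq2, Areg being added, 3 with an unadjusted p, 0 with limma at a pseudocount of 0.1, and 1 without any single library. Without DSS the genotypes gave 0 members in every alternative. Ereg between colitic genotypes ranged from -3.12 to -2.19 on the log2 scale over the alternatives, with adjusted p from 1.229e-08 with DESeq2 to 0.09945 with limma. All genes called moved as well. Between colitic genotypes these were 680, against 1619 with DESeq2, 71 with limma at a pseudocount of 0.1 and 27 when replicate 1 of colitic Tmem173fl/fl mice was omitted. For DSS in Tmem173iΔmye mice they were 501, against 1137 with DESeq2, 41 with limma and 52 to 1470 without single libraries. For DSS in Tmem173fl/fl mice they were 5424, against 8546 by adjusted p alone and 2838 with limma at a pseudocount of 1, and for the interaction 614, against 1365 with DESeq2. Without DSS they were 0, against 95 with the replicate block, at most 6 without single libraries and at most 328 over all alternatives. Replicate numbers did not pair the libraries, since deviations of same-numbered libraries correlated from -0.17 to 0.20. Pathway genes called with DSS in Tmem173fl/fl mice numbered 17, against 33 by adjusted p alone and 11 with limma at a pseudocount of 1. Between colitic genotypes they numbered 6, against 10 with DESeq2, and 0 and 1 with limma at pseudocounts of 0.1 and 1. For the interaction they numbered 3, against 9 with DESeq2 and 1 with limma at a pseudocount of 0.1. Among the pathway genes, the call of Spry1 in the interaction was lost in 0 of 21 alternatives. The genes most like Ereg changed with the measure, Il11 giving way to Spock2 with FPKM in place of CPM, and 0 of 3 were shared with ranks. The cause of these shifts was not tested. Depth limits Epgn, with 4 to 91 counts in a group.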

Other observations

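Markers of several cell types that are known to release amphiregulin were set beside Areg. The epithelial sum was higher in all colitic Tmem173iΔmye libraries, as Areg was, with 9512 to 11310 CPM against 4378 to 7492 CPM in colitic Tmem173fl/fl mice. In untreated Tmem173iΔmye mice, however, the epithelial sum was 12350 to 14950 CPM, above that of the colitic ones. Areg, at 24.0 to 40.9 CPM there, was below its colitic levels. Replicate 1 of the colitic Tmem173iΔmye group had the lowest epithelial sum of its group and the highest Areg. The immune sums were not higher in all colitic Tmem173iΔmye libraries. The sum of 8 markers of type 2 innate lymphoid cells and regulatory T cells was 301.5, 139.1 and 541.5 CPM in the colitic Tmem173fl/fl libraries and 92.9, 74.4 and 25.4 CPM in the colitic Tmem173iΔmye libraries, against 15.8 to 26.1 CPM in the untreated ones, while Areg was 27.2, 18.1 and 30.3 CPM in the former and 72.4, 45.8 and 49.4 CPM in the latter. Of the 6 of these 8 markers that were tested, 5 were called higher with DSS in Tmem173fl/fl mice (beside 22.6% of all genes) and 1 in Tmem173iΔmye mice (beside 2.08%), and 0 were called between colitic genotypes by edgeR (beside 2.83%). The sum of 6 mast cell markers stayed between 3.18 and 12.6 CPM in all libraries. Of the 6, 3 were called higher with DSS in Tmem173fl/fl mice, beside 22.6% of all genes, and 0 in the other comparisons. The sum of 9 squamous epithelial markers was 97.8, 35.5 and 24.7 CPM in the colitic Tmem173iΔmye libraries and 24.7, 10.4 and 19.7 CPM in the colitic Tmem173fl/fl ones, so the nearest libraries were level. Of the 5 squamous markers tested, 0 were called between colitic genotypes by edgeR, and the squamous sum, like Areg, was highest in replicate 1 of the colitic Tmem173iΔmye group. The part of any of these cells in the Areg levels was not tested.

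The sum of 8 markers of crypt base and dividing cells was 710.4 to 1005 CPM in the untreated libraries and 264.6 to 489.2 CPM in the colitic libraries of both genotypes, and the sums overlapped between colitic genotypes. With DSS 6 of the 8 were called lower and 2 higher in Tmem173fl/fl mice, beside 22.6% of all genes called, and 4 were called lower in Tmem173iΔmye mice, beside 2.08%. Between colitic genotypes 2 were called lower, beside 2.83%, and 1 had a lower interaction, beside 2.55%. Of 6 endothelial markers, 6 were called higher with DSS in Tmem173fl/fl mice, beside 22.6% of all genes, 2 lower between colitic genotypes and 1 lower in the interaction. They summed to 274.6 to 399.3 CPM in colitic Tmem173fl/fl and to 128.5 to 221.9 CPM in colitic Tmem173iΔmye mice.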
